A study of Mus musculus with 15 samples.

Results

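Collagens are the proteins that give connective tissue its fibres, sheets and anchoring threads, and these results describe every mouse gene named as a collagen chain on the arrays other than Col4a1 and Col4a2. The members were all gene names made of Col, a number, the letter a and a number, on non-control probes, with each gene read by its probe of highest mean signal. That gave 38 genes of 31829 gene names on the array, and 33 of these were among the 25087 genes that passed the filter on dim probes. The series studied Phf19 and Polycomb repression in mouse embryonic stem cells, and 1-colour arrays measured RNA levels in 15 samples. All cells carried a hairpin, labelled sh4 or shCTR, and the gene that sh4 targets is named only by the series title. The 4 groups were sh4 cells in 1 µM retinoic acid for 72 h (n = 3), shCTR cells in the same treatment (n = 4), untreated sh4 cells (n = 4) and untreated shCTR cells (n = 4). The labels give no line, strain or clone for the cells and no culture time for the untreated ones, so the effect of retinoic acid cannot be told apart from that of 72 h of culture. The labels call the samples biological replicates without saying that they were separate cultures, so the p-values measure the spread between these samples only. In such bulk samples a smaller share of cells that express a gene and less of its RNA in each cell cannot be told apart.

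A collagen molecule is a triple helix of 3 chains in which glycine recurs at the third position of each triplet, the only amino acid small enough to sit at the centre of the helix. Fibrillar collagens pack side by side into the fibres of bone, tendon, skin and cartilage. Network collagens build sheets such as basement membranes, fibril-associated collagens decorate the fibres, and transmembrane collagens are anchored in the cell surface. Retinoic acid, a vitamin A derivative, drives embryonic stem cells into differentiation. Phf19 is a Polycomb-like accessory protein of Polycomb repressive complex 2, which methylates histone H3 on lysine 27 at silenced developmental genes. The collagen repeat could be read directly in a pair of the 57 member probes, in which glycine codons, in capitals, recur at a regular spacing, the third codon of each triplet in one reading frame. Both probes are of build mm9 and on the plus strand, chr4:47283786-47283845 for the Col15a1 probe and chr3:130270497-130270556 for the Col25a1 probe.
Col15a1: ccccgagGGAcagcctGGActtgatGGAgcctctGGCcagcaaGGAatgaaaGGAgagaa
Col25a1: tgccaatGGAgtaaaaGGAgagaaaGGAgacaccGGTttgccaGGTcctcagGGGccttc

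Levels are given as log2 of the array's processed signal minus that array's 75th percentile, so 0 is the 75th percentile itself. Levels of different probes were not set against each other. Every log2 fold change is followed by its standard error, and each comes from limma over all 15 arrays with Benjamini-Hochberg adjustment over the 25087 genes and a threshold of 0.05. Each array had 73.8% to 79.4% of its probes well above background, and 3 of the 15 arrays, 1 of sh4 in retinoic acid and 1 of each untreated group, have an extraction status of 1 in the scanner files. The Phf19 probe, the check of the labels, read −3.97 to −3.71 in sh4 cells in retinoic acid, against −3.06 to −2.80 in shCTR cells in retinoic acid. In untreated cells it read −2.61 to −2.51 with sh4, against −0.98 to −0.69 with shCTR. All 5 embryonic stem cell markers looked at, among them Pou5f1 and Nanog, were well above background in every group, and all 5 were lower in retinoic acid with either hairpin. Their summed signal, as a multiple of each array's 75th percentile, was 3.88 to 8.14 with sh4 and 8.79 to 10.8 with shCTR in retinoic acid. In untreated cells it was 156 to 166 with sh4 and 209 to 231 with shCTR. The 15 arrays lay on 4 slides, each holding all 4 groups except the one that lacked an sh4 sample in retinoic acid.

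Of the 38 collagen genes, each read by its brightest probe, 28 were well above background on all 15 arrays, 5 on some and 5 on none. The 5 on none were Col4a3, of basement membranes, Col6a6, Col10a1, the collagen of hypertrophic cartilage, Col19a1 and Col28a1. The 5 on some were Col3a1 with 8 arrays, Col5a2 with 13, and Col8a1, Col12a1 and Col24a1 with 7 each, and those 7 were all the retinoic acid arrays. Col3a1, Col8a1, Col12a1 and Col24a1 passed the filter only through the retinoic acid arrays, where they are high, so these 4 had to be higher there. Other probes of some genes seen on all 15 arrays were dark. Both other Col15a1 probes and some of Col25a1 and Col4a4 were well above background on 0 arrays, and the other Col9a1 probe on 3. The Col15a1 and Col25a1 probes used are the glycine repeats shown above.

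In retinoic acid against untreated cells with the sh4 hairpin, 23 of the 33 collagen genes were higher and 3 lower. With the shCTR hairpin 23 were higher and 4 lower. Over all 25087 genes, 27.1% were higher and 31.6% lower with sh4, and 29% were higher and 33.5% lower with shCTR. The median log2 fold change of the collagen genes was 1.04 with sh4 and 1.67 with shCTR, beside −0.12 over all genes with either hairpin. The collagen medians include Col3a1, Col8a1, Col12a1 and Col24a1, which had to be higher, so they lean upwards. Among the 28 collagen genes seen on all 15 arrays, 18 were higher and 3 lower with sh4, and 18 were higher and 4 lower with shCTR. The 2 comparisons were made on different arrays, and 25 genes passed the test in both, all in the same direction in both. Col3a1, Col8a1, Col12a1 and Col24a1 are among these 25, and they had to be higher in both. The share of all genes that passed with both hairpins was not counted, so this overlap has no reference beside it.

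The hairpin moved fewer collagen genes. In retinoic acid, sh4 cells had 6 of the 33 higher and 6 lower than shCTR cells, where 10.9% of all genes were higher and 10.3% lower. In untreated cells, sh4 cells had 8 higher and 6 lower, where 14.4% of all genes were higher and 14.1% lower. The hairpin effect in retinoic acid minus that in untreated cells, the interaction, was positive for 8 members and negative for 4, where 10.2% of all genes passed in each direction. Background correction by normexp, with an offset of 50 added to each signal, was used as an alternative. It gave 4 higher and 2 lower for the hairpin in retinoic acid, 3 and 6 in untreated cells, and 9 and 1 for the interaction. Quantile normalization gave 5 higher and 6 lower for the hairpin in untreated cells. The authors' deposited normalized values gave 7 and 5 in retinoic acid, 3 and 6 in untreated cells, and 10 and 1 for the interaction. With slide as a term, the splits were 6 and 6 in retinoic acid, 9 and 6 in untreated cells, 8 and 3 for the interaction, and 23 and 3 with sh4 and 23 and 4 with shCTR for retinoic acid. Each called difference had the same sign within every slide that held both groups, except the Col18a1 interaction, which was 0.01 on 1 slide.

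**Figure D1:**
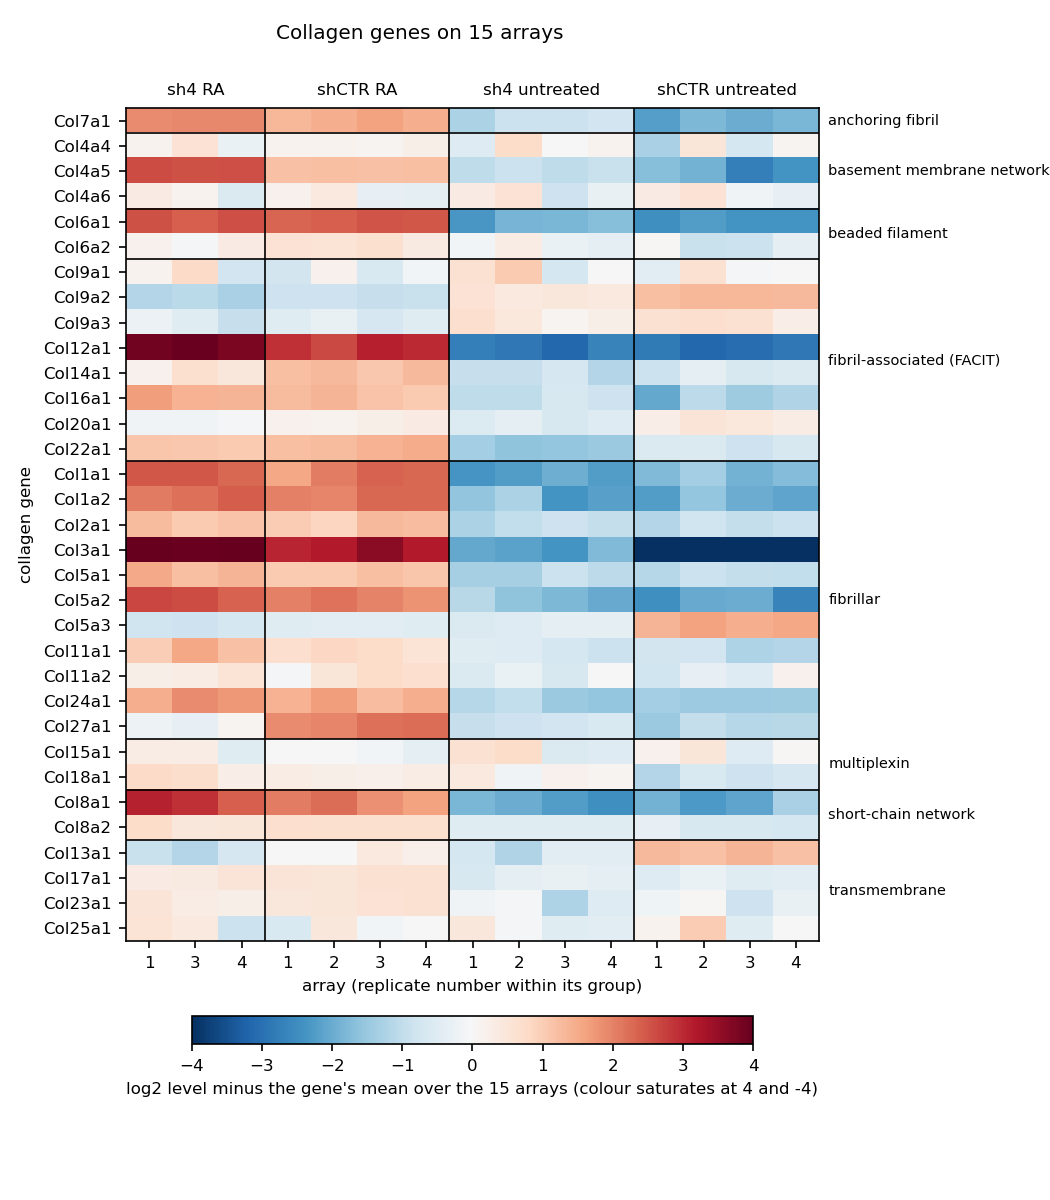
Each row is a collagen gene, ordered by class, and each column a sample, in the order sh4 in retinoic acid, shCTR in retinoic acid, sh4 untreated, shCTR untreated. Colour is the log2 level minus the gene's mean over the 15 arrays, and most rows change at the border between retinoic acid and untreated samples, with Col5a3, Col9a2 and Col9a3 changing the other way. The colour scale ends at 4 and −4, and the 5 genes not well above background on any array are not shown.

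The fibrillar class had 11 genes tested, and in retinoic acid 10 were higher and 1 was lower with each hairpin. Without Col3a1 and Col24a1, which had to be higher there, 8 of 9 rose and 1 fell. Col1a1, a chain of type I collagen, the main fibre of bone and skin, had levels of 1.29, 1.31 and 1.11 with sh4 and 0.36, 0.87, 1.17 and 1.11 with shCTR in retinoic acid. In untreated cells they were −3.53, −3.41, −3.13 and −3.43 with sh4 and −2.94, −2.54, −3.06 and −2.93 with shCTR. Every retinoic acid sample lay above every untreated one, and the log2 fold changes were 4.61 ± 0.18 with sh4 and 3.74 ± 0.17 with shCTR (limma adjusted p 8.6e-11 and 2.2e-10). In untreated cells the 4 sh4 samples lay below the 4 shCTR samples, with a difference of −0.51 ± 0.17 (limma adjusted p = 0.037). That call was lost on leaving out any 1 of the untreated sh4 replicates 1, 2 and 4 or shCTR replicates 1, 2 and 4, with limma adjusted p up to 0.11. Col1a2, the partner chain of Col1a1, read 1.41, 1.53 and 1.77 with sh4 and 1.35, 1.29, 1.64 and 1.65 with shCTR in retinoic acid. Untreated cells read −2.23, −1.93, −3.05 and −2.84 with sh4 and −2.88, −2.20, −2.65 and −2.77 with shCTR. The treatments did not overlap for Col1a2, with log2 fold changes of 4.08 ± 0.24 with sh4 and 4.11 ± 0.23 with shCTR (limma adjusted p 5.6e-09 and 1.8e-09). The hairpins overlapped in both treatments, and the log2 difference of 0.11 ± 0.23 in untreated cells had a 95% interval of −0.38 to 0.60.

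Col2a1, the type II collagen of cartilage, had 2.08, 1.88 and 1.95 with sh4 and 1.84, 1.68, 2.12 and 2.05 with shCTR in retinoic acid, against −0.45, −0.16, −0.02 and −0.13 with sh4 and −0.35, 0.02, −0.12 and −0.04 with shCTR in untreated cells. It was higher in all retinoic acid samples than in all untreated ones, by 2.16 ± 0.13 on the log2 scale with sh4 and 2.04 ± 0.12 with shCTR (limma adjusted p 5.9e-09 and 3.5e-09). The hairpin samples overlapped in both treatments for Col2a1, and its differences were 0.05 in retinoic acid and −0.07 in untreated cells, neither past the threshold.

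Col3a1, the type III collagen of skin and vessel walls (probe at mm9 chr1:45405589-45405648, plus strand), was well above background in every retinoic acid sample and in only 1 untreated one. Its levels were −1.66, −1.78 and −1.61 with sh4 and −2.68, −2.56, −2.12 and −2.56 with shCTR in retinoic acid. In untreated cells they were −7.77, −7.87, −8.13 and −7.48 with sh4 and −9.80, −9.97, −10.04 and −9.89 with shCTR. All retinoic acid samples lay above all untreated ones, and the untreated array above background was an sh4 one. The level was at least 39.5-fold higher in retinoic acid than in untreated shCTR cells, given as a description, since the filter kept Col3a1 only through the retinoic acid arrays. With normexp that log2 change was 2.28, a smaller fold than this bound, which holds for the processed signal only. With sh4 no fold is given, since 3 of the 4 untreated arrays were not well above background. All 3 sh4 samples in retinoic acid lay above all 4 shCTR samples, by 0.80 ± 0.15 (limma adjusted p = 0.0016), and the difference ran from 0.51 to 1.02 within slides. In untreated cells the fitted hairpin difference of 2.11 (limma adjusted p = 7.8e-08) lies almost wholly below the background limit, so it gives no fold, and normexp correction turned its sign to −0.07. The interaction of −1.31 ± 0.20 (limma adjusted p = 0.00043) rests on those dim values and was 0.78 with normexp. The promoter of Col3a1 is shown because the gene was at or below background in nearly all untreated samples. It covers the 250 bases before the RefSeq start in build GRCm38.p6, chr1:45311288-45311537, plus strand. It holds 0 CG pairs and 1 match to TATAAA, the letters of a TATA box, in capitals.
Col3a1: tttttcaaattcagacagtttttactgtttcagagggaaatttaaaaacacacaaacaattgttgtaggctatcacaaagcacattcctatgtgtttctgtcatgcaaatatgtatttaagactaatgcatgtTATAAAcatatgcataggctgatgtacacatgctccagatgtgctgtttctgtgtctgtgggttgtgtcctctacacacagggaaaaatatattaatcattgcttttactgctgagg

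Type V collagen sits inside type I fibrils and limits their width, and its chains did not all go the same way. Col5a1 read 1.79, 1.47 and 1.62 with sh4 and 1.33, 1.30, 1.47 and 1.39 with shCTR in retinoic acid, against −1.05, −1.06, −0.59 and −0.79 with sh4 and −0.88, −0.58, −0.68 and −0.72 with shCTR in untreated cells. Col5a1 was higher in every retinoic acid sample, by 2.50 ± 0.12 with sh4 and 2.09 ± 0.11 with shCTR (limma adjusted p 5.7e-10 and 1.2e-09). Col5a2, which lies beside Col3a1 on chromosome 1, read −2.87, −2.93 and −3.18 with sh4 and −3.52, −3.38, −3.55 and −3.73 with shCTR in retinoic acid. Untreated cells had −6.64, −7.14, −7.33 and −7.55 with sh4 and −7.98, −7.55, −7.51 and −8.20 with shCTR, and 2 of the 4 shCTR arrays were not well above background. Col5a2 rose by 4.17 ± 0.21 with sh4 and 4.26 ± 0.19 with shCTR (limma adjusted p 9e-10 and 2.4e-10). The sh4 excess of 0.64 ± 0.19 in untreated cells passed the test (limma adjusted p = 0.023) but was lost on leaving out untreated sh4 replicate 1 or shCTR replicate 1 or 4, with limma adjusted p up to 0.073, and was −0.07 with normexp. In retinoic acid the sh4 excess was 0.55 ± 0.21, which did not pass (limma adjusted p = 0.081).

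Col5a3, another type V chain (probe at mm9 chr9:20574592-20574651, minus strand), fell in retinoic acid. Its levels were −2.86, −2.89 and −2.78 with sh4 and −2.56, −2.50, −2.52 and −2.56 with shCTR in retinoic acid. In untreated cells they were −2.64, −2.59, −2.44 and −2.46 with sh4 and −0.72, −0.48, −0.61 and −0.52 with shCTR. The 4 untreated shCTR samples stand alone at the top, and the other 3 groups lie close together. In untreated cells sh4 minus shCTR was −1.95 ± 0.07 on the log2 scale, a level 0.259 times that of shCTR (limma adjusted p = 2.6e-10), and within slides the difference ran from −2.11 to −1.83. In retinoic acid against untreated cells the change was −0.31 ± 0.07 with sh4 (limma adjusted p = 0.002) and −1.95 ± 0.07 with shCTR (limma adjusted p = 1.3e-11). The hairpin difference in retinoic acid was −0.31 ± 0.07 (limma adjusted p = 0.0075), a call lost with normexp (limma adjusted p = 0.060). The interaction was 1.64 ± 0.10 (limma adjusted p = 1.2e-07), so the hairpin difference was smaller in retinoic acid. Col5a3 had the lowest log2 change among fibrillar genes in retinoic acid, and its promoter is shown beside that of Col3a1 as the contrast within the class. It lies at chr9:20815068-20815317 of GRCm38.p6 on the minus strand, with 17 CG pairs, and capitals mark 1 CCAAT box and 2 GGGCGG boxes, the letters of a GC box, on either strand.
Col5a3: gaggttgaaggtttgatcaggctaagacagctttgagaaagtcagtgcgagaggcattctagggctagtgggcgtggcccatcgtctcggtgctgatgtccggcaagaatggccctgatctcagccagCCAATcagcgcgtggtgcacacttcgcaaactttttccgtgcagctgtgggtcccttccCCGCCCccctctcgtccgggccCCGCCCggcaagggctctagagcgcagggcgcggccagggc

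Type XI collagen, the thin fibre core of cartilage, has Col11a1 and Col11a2 among its chains. Col11a1 rose by 1.86 ± 0.16 with sh4 and 1.67 ± 0.15 with shCTR in retinoic acid (limma adjusted p 2.1e-07 and 2.3e-07). Col11a2 was higher by 0.73 ± 0.24 with sh4 and 0.82 ± 0.23 with shCTR (limma adjusted p 0.02 and 0.0057), but normexp gave 0.07 and −0.06, so both calls were lost and the shCTR sign turned (limma adjusted p 0.75 and 0.73). Of the pair only Col11a1 passed the test between hairpins, at −2.69 to −2.12 with sh4 and −3.12 to −2.82 with shCTR in retinoic acid, a difference of 0.53 ± 0.16 (limma adjusted p = 0.029). Leaving out sh4 replicate 3 or 4 or shCTR replicate 1, 3 or 4 in retinoic acid ended that call, with limma adjusted p up to 0.14, as did normexp (0.41, limma adjusted p = 0.06). In untreated cells the Col11a1 difference of 0.34 did not pass, but did with slide as a term (limma adjusted p = 0.031). The Col11a2 call with sh4 was likewise lost without sh4 replicate 4 in retinoic acid or untreated sh4 replicate 1 or 3, with limma adjusted p up to 0.076. Col24a1, a minor fibrillar collagen of developing bone, was seen only in retinoic acid, at −7.03, −6.59 and −6.75 with sh4 and −7.09, −6.81, −7.25 and −7.05 with shCTR. In untreated cells none of the 8 arrays was well above background, with listed values of −10.05 to −9.49 for sh4 and −9.96 to −9.85 for shCTR. It was at least 2-fold higher in retinoic acid with sh4 and at least 1.67-fold higher with shCTR, given as a description, since the filter kept Col24a1 only through the retinoic acid arrays. With normexp the changes were 0.25 with sh4 and −0.07 with shCTR on the log2 scale, and neither passed.

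Col27a1, a minor fibrillar collagen of cartilage (probe at mm9 chr4:62995485-62995544, plus strand), was the member whose hairpin effect passed the test in opposite directions in the 2 treatments. Its levels were −3.86, −3.99 and −3.56 with sh4 and −1.77, −1.72, −1.47 and −1.41 with shCTR in retinoic acid. In untreated cells they were −4.59, −4.48, −4.43 and −4.28 with sh4 and −5.14, −4.62, −4.81 and −4.77 with shCTR. In retinoic acid the sh4 samples lay below all shCTR samples, with a difference of −2.21 ± 0.14, a level 0.216 times that of shCTR (limma adjusted p = 1.8e-07). In untreated cells every sh4 sample lay above every shCTR sample, by 0.39 ± 0.13 (limma adjusted p = 0.038), a difference that was 0.07 with normexp. That call was lost without any 1 of the untreated sh4 replicates 2, 3 and 4 or shCTR replicates 1, 3 and 4, with limma adjusted p up to 0.11. Col27a1 rose in retinoic acid by 0.64 ± 0.14 with sh4 and by 3.24 ± 0.13 with shCTR (limma adjusted p 0.0013 and 6.6e-11). The interaction of −2.60 ± 0.19 was the largest in size among the 33 members (limma adjusted p = 7.3e-07), and ran from −2.64 to −2.41 within slides. Its promoter, chr4:63215162-63215411 of GRCm38.p6 on the plus strand, has 15 CG pairs and 1 GGGCGG match, in capitals.
Col27a1: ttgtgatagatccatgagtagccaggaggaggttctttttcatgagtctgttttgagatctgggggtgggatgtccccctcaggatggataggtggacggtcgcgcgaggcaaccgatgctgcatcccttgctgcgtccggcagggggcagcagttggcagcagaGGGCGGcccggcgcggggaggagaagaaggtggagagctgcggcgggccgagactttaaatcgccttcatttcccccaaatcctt

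The other basement membrane chains, Col4a3 to Col4a6, replace or join the common chains in kidney, lung and skin. Col4a3 was not well above background on any array, and its neighbour Col4a4 had no call on the probe used. The other kept Col4a4 probe was higher in retinoic acid by 0.59 ± 0.23 with sh4 and 0.67 ± 0.22 with shCTR (limma adjusted p 0.043 and 0.015 over 31179 probes). Col4a5, with its probe at mm9 chrX:138123547-138123606 on the plus strand, read −1.19, −1.25 and −1.23 with sh4 and −2.64, −2.60, −2.61 and −2.59 with shCTR in retinoic acid. Untreated cells read −4.81, −4.65, −4.80 and −4.69 with sh4 and −5.50, −5.68, −6.52 and −6.19 with shCTR. The 4 groups did not overlap, and they ran in steps, with sh4 in retinoic acid at the top and untreated shCTR at the bottom. Col4a5 was higher with sh4 than with shCTR by 1.39 ± 0.18 in retinoic acid and 1.23 ± 0.17 in untreated cells (limma adjusted p 0.0001 and 7.5e-05). It was higher in retinoic acid than in untreated cells by 3.52 ± 0.18 with sh4 and 3.36 ± 0.17 with shCTR (limma adjusted p 1.3e-09 and 6.6e-10), and the interaction of 0.15 did not pass. With normexp the untreated hairpin difference of Col4a5 was 0.33 and the interaction 0.90, which passed (limma adjusted p = 0.00058). The hairpin effect on Col4a5 ran from 1.35 to 1.45 within slides in retinoic acid and from 0.68 to 1.71 in untreated cells.

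Col4a6 lies head to head with Col4a5 on the X chromosome, and their annotated starts are 1343 bases apart. The brighter of its 2 probes, mm9 chrX:137601433-137601491 on the minus strand, had −2.07, −2.26 and −2.98 with sh4 and −2.25, −2.03, −2.74 and −2.79 with shCTR in retinoic acid. Untreated cells read −2.08, −1.85, −3.23 and −2.72 with sh4 and −2.07, −1.84, −2.54 and −2.75 with shCTR. These values overlap between all groups and no comparison passed the test. In each group the arrays of slides 1 and 2 lay above those of slides 3 and 4. The dimmer probe, at mm9 chrX:137599990-137600049, was looked at after the data were seen. It read −1.73, −1.86 and −1.68 with sh4 and −3.71, −3.45, −3.23 and −3.33 with shCTR in retinoic acid. Untreated cells read −5.23, −5.07, −4.85 and −4.97 with sh4 and −6.86, −6.85, −6.78 and −6.77 with shCTR on that probe. Its 4 groups did not overlap and stood in the same order as those of Col4a5. In a limma fit of all 31179 kept probes, the dimmer Col4a6 probe differed between hairpins by 1.67 ± 0.11 in retinoic acid and 1.79 ± 0.10 in untreated cells (adjusted p 3.3e-07 and 2.6e-08). Retinoic acid gave 3.27 ± 0.11 with sh4 and 3.39 ± 0.10 with shCTR on that probe (limma adjusted p 2.3e-11 and 4.6e-12). The brighter probe is 55.0% G and C and the dimmer one 36.7%, and which transcript each one reads was not tested. The upstream sequences of the pair, from RefSeq in GRCm38.p6, are chrX:141475169-141475418 on the plus strand and chrX:141474077-141474326 on the minus strand. Capitals mark CCAAT and GGGCGG matches, 1 of each for Col4a5 and 1 GGGCGG for Col4a6, and the CG pairs number 10 and 3.
Col4a5: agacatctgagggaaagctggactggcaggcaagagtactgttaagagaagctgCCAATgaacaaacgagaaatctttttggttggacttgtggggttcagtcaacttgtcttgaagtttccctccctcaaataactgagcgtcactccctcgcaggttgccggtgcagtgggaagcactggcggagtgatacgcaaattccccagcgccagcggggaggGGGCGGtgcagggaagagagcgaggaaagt
Col4a6: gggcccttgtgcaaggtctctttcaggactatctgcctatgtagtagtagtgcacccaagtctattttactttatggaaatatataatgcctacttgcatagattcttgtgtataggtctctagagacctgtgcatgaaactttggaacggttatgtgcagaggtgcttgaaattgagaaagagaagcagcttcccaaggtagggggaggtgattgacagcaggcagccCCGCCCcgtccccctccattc

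Col4a1 and Col4a2, the common basement membrane chains left out here, also rose in retinoic acid, by 2.91 and 2.99 with sh4 and 4.66 and 4.91 with shCTR. In retinoic acid their differences sh4 minus shCTR were −2.44 and −2.17, the direction of Col27a1 and the opposite of Col4a5.

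The beaded filament collagen, type VI, was read through Col6a1 and Col6a2, neighbours on chromosome 10. Col6a1 had −0.72, −0.87 and −0.69 with sh4 and −0.93, −0.88, −0.74 and −0.77 with shCTR in retinoic acid, against −5.58, −5.13, −5.09 and −4.95 with sh4 and −5.70, −5.48, −5.66 and −5.66 with shCTR in untreated cells. Every retinoic acid sample stood above every untreated one, and the log2 fold changes were 4.42 ± 0.12 and 4.80 ± 0.12 (limma adjusted p 3.8e-12 with sh4 and 5.2e-13 with shCTR). In untreated cells Col6a1 was higher with sh4 than with shCTR by 0.44 ± 0.12 (limma adjusted p = 0.011), and by 0.02 with normexp, which did not pass. Col6a2 rose by 1.05 ± 0.20 in shCTR cells in retinoic acid (limma adjusted p = 0.00033), and its change of 0.25 ± 0.21 in sh4 cells did not pass. The Col6a2 interaction of −0.80 ± 0.29 did not pass either (limma adjusted p = 0.071), so the retinoic acid effects were not shown to differ.

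Of the short-chain network collagens, Col8a1, of vessel walls and the cornea, was seen only in retinoic acid. It read −4.86, −5.01 and −5.53 with sh4 and −5.88, −5.68, −6.11 and −6.31 with shCTR. None of the 8 untreated arrays was well above background, with listed values of −10.37 to −9.77 for sh4 and −10.23 to −9.24 for shCTR. The level was at least 6.3-fold higher in retinoic acid with sh4 and at least 3.46-fold with shCTR, given as a description, since the filter kept Col8a1 only through the retinoic acid arrays. With normexp the log2 change was 0.77 with sh4, a smaller fold than that bound, and 0.21 with shCTR, which did not pass. All sh4 samples in retinoic acid lay above all shCTR samples, by 0.86 ± 0.24 (limma adjusted p = 0.022), a call lost without sh4 replicate 1 or 3 or shCTR replicate 3 or 4 in retinoic acid (limma adjusted p up to 0.11). With normexp that difference was 0.32 and did not pass (limma adjusted p = 0.3). The partner Col8a2 rose by 1.04 ± 0.09 with sh4 and 1.23 ± 0.08 with shCTR (limma adjusted p 2.6e-07 and 1.8e-08) on its brighter probe, and its other kept probe had no call. Col10a1 was not well above background on any array.

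Col7a1, the chain of the anchoring fibrils that fasten epidermis to dermis, was higher with sh4 in both treatments and higher in retinoic acid with both hairpins. Its levels were 3.05, 3.06 and 3.08 with sh4 and 2.48, 2.61, 2.76 and 2.59 with shCTR in retinoic acid, against −0.13, 0.30, 0.28 and 0.37 with sh4 and −1.04, −0.64, −0.84 and −0.69 with shCTR in untreated cells. The 4 groups did not overlap and stood in the same order as those of Col4a5. Col7a1 was higher with sh4 than with shCTR by 0.46 ± 0.12 in retinoic acid (limma adjusted p = 0.017) and by 1.01 ± 0.11 in untreated cells (limma adjusted p = 1.4e-05). Its rise in retinoic acid was 2.86 ± 0.12 with sh4 and 3.41 ± 0.11 with shCTR (limma adjusted p 2e-10 and 1.1e-11). The interaction was −0.55 ± 0.17 (limma adjusted p = 0.034), a call lost on leaving out any 1 of 11 arrays, with limma adjusted p up to 0.070. The hairpin call in retinoic acid was lost without sh4 replicate 1 or 4 or shCTR replicate 1, with limma adjusted p up to 0.052.

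**Figure D2:**
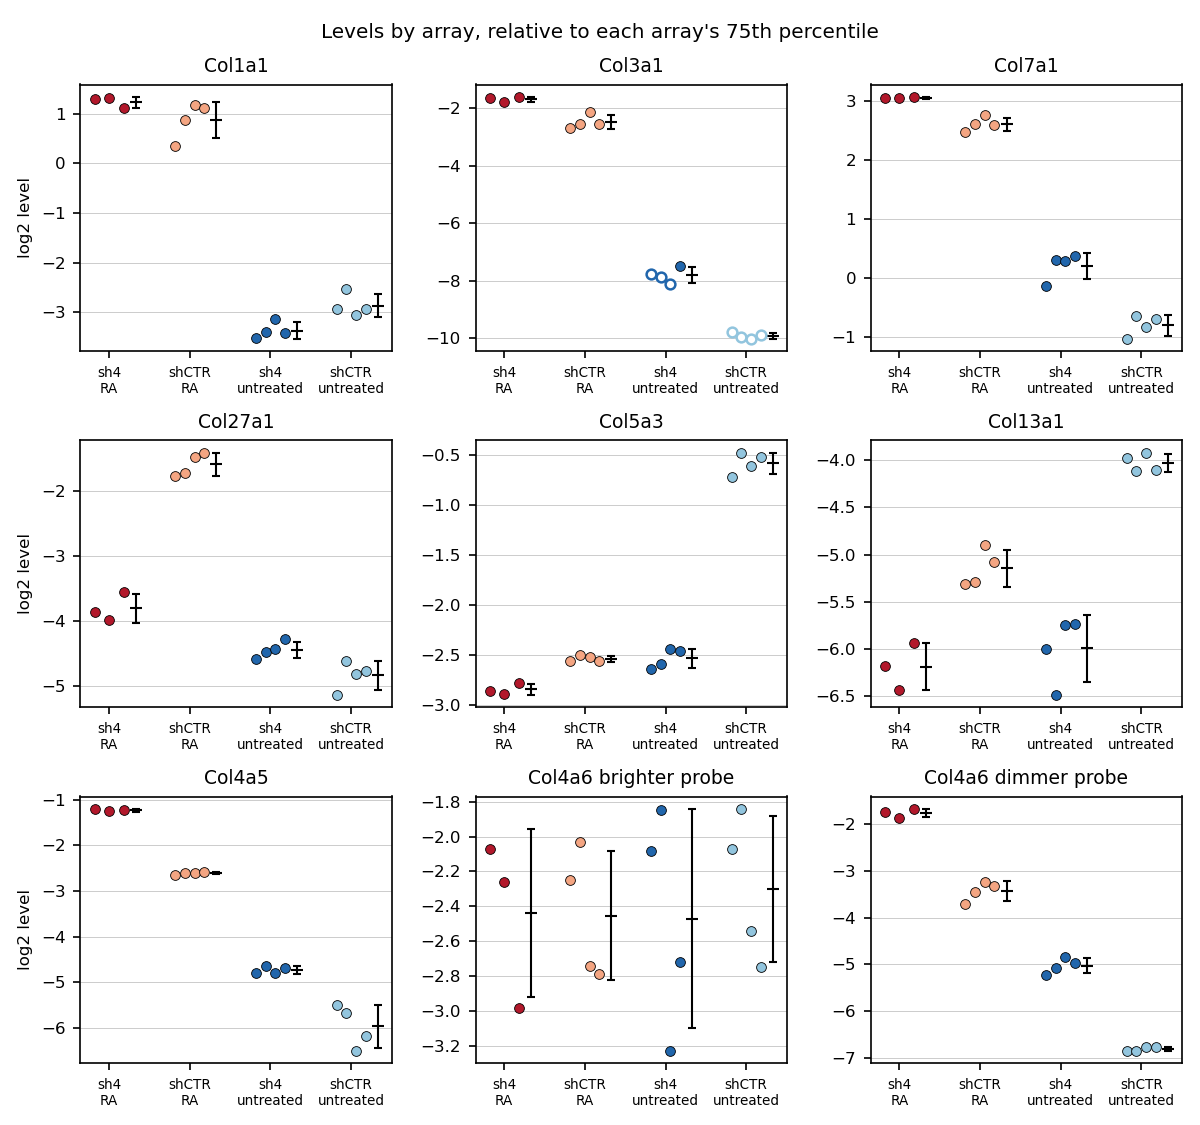
Each panel shows 1 gene, with its log2 level on a y axis of its own and the 4 groups on the x axis, in the order sh4 and shCTR in retinoic acid, then sh4 and shCTR untreated. Points are arrays, open where the spot was not well above background, and bars are the mean ± SD of 3 or 4 arrays. Col5a3 is high in untreated shCTR cells alone, Col27a1 is high in shCTR cells in retinoic acid, and Col4a5 and the dimmer Col4a6 probe share the same 4 steps.

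The fibril-associated class had 8 genes tested, with 5 higher and 2 lower in retinoic acid with sh4, and 4 higher and 2 lower with shCTR. Without Col12a1, which had to be higher there, 4 of 7 rose and 2 fell with sh4, and 3 rose and 2 fell with shCTR. Col12a1, which coats type I fibrils in tendon and ligament, read −3.20, −3.09 and −3.28 with sh4 and −4.13, −4.41, −3.93 and −4.06 with shCTR in retinoic acid. No untreated array was well above background, with listed values of −10.18 to −9.73 for sh4 and −10.18 to −9.87 for shCTR. It was at least 24.3-fold higher in retinoic acid with sh4 and at least 12.6-fold with shCTR, given as a description, since the filter kept Col12a1 only through the retinoic acid arrays. With normexp the log2 changes were 2.01 with sh4 and 1.11 with shCTR, smaller folds than these bounds, which hold for the processed signal only. The sh4 samples in retinoic acid lay above all the shCTR samples, by 0.94 ± 0.13 (limma adjusted p = 0.00017), and the difference ran from 0.64 to 1.32 within slides. Col14a1, a relative of Col12a1 on the same fibrils, rose by 1.35 ± 0.14 with sh4 and 1.83 ± 0.13 with shCTR (limma adjusted p 1.7e-06 and 2.7e-08). In retinoic acid Col14a1 went the other way from Col12a1, at −4.48, −4.01 and −4.19 with sh4 and −3.46, −3.37, −3.56 and −3.36 with shCTR, a difference of −0.79 ± 0.14 (limma adjusted p = 0.0012). Its other probe had no call, with −0.02 and 0.11 for retinoic acid and −0.20 for the hairpin, so the Col14a1 result rests on 1 of its 2 probes.

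Type IX collagen, which links to type II fibrils in cartilage, has 3 chains, of which Col9a2 and Col9a3 fell in retinoic acid, where Col2a1 rose. Col9a2 had −1.90, −1.81 and −2.04 with sh4 and −1.58, −1.58, −1.66 and −1.63 with shCTR in retinoic acid, against −0.16, −0.34, −0.28 and −0.35 with sh4 and 0.46, 0.59, 0.57 and 0.56 with shCTR in untreated cells. The 4 groups did not overlap, and untreated shCTR stood at the top. In retinoic acid against untreated cells Col9a2 changed by −1.64 ± 0.07 with sh4 and −2.16 ± 0.06 with shCTR (limma adjusted p 1.7e-10 and 3.6e-12). Its differences sh4 minus shCTR were −0.30 ± 0.07 in retinoic acid and −0.83 ± 0.06 in untreated cells (limma adjusted p 0.0065 and 4.1e-07), and the interaction was 0.52 ± 0.09 (limma adjusted p = 0.0014). The call in retinoic acid was lost with normexp (−0.24, limma adjusted p = 0.087). Col9a3 was at −6.81 to −6.13 with sh4 and −6.56 to −6.19 with shCTR in retinoic acid, against −5.79 to −5.22 and −5.61 to −5.21 in untreated cells, and changed by −0.90 ± 0.17 with sh4 and −1.03 ± 0.16 with shCTR (limma adjusted p 0.00039 and 5.7e-05). Col9a1, the remaining chain, had no call in any comparison, with a within-group SD of 0.611, the widest of the 33 genes. Its neighbour Col19a1 was not well above background on any array.

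Col16a1, a fibril-associated collagen of skin and smooth muscle, read 0.26, −0.01 and −0.05 with sh4 and −0.16, −0.05, −0.27 and −0.36 with shCTR in retinoic acid. Untreated cells read −2.42, −2.44, −2.06 and −2.25 with sh4 and −3.46, −2.47, −2.85 and −2.63 with shCTR. Col16a1 rose in retinoic acid by 2.36 ± 0.19 with sh4 and 2.64 ± 0.18 with shCTR (limma adjusted p 1.5e-07 and 1.6e-08), and the sh4 excess of 0.56 ± 0.18 in untreated cells (limma adjusted p = 0.031) was lost without untreated sh4 replicate 3 or 4 or shCTR replicate 1 or 3 (limma adjusted p up to 0.089). It was also lost with normexp (0.38, limma adjusted p = 0.11), and the other 2 kept Col16a1 probes gave 0.43 and 0.41, neither past the threshold (limma adjusted p 0.093 and 0.19). Col22a1, of muscle and tendon junctions, had −0.85, −0.88 and −0.90 with sh4 and −0.76, −0.70, −0.56 and −0.47 with shCTR in retinoic acid. Untreated cells had −3.32, −3.56, −3.51 and −3.45 with sh4 and −2.53, −2.54, −2.80 and −2.60 with shCTR. The untreated sh4 samples were the lowest, −0.84 ± 0.08 from shCTR (limma adjusted p = 3.8e-06), and Col22a1 rose in retinoic acid by 2.58 ± 0.09 with sh4 and 2.00 ± 0.08 with shCTR (limma adjusted p 2.6e-11 and 9.8e-11). Col20a1 had −1.98 to −1.89 with sh4 and −1.70 to −1.51 with shCTR in retinoic acid, against −2.47 to −2.20 and −1.58 to −1.31 in untreated cells. The Col20a1 differences sh4 minus shCTR were −0.33 ± 0.08 in retinoic acid and −0.88 ± 0.08 in untreated cells (limma adjusted p 0.013 and 1.2e-06), and the call in retinoic acid was lost without sh4 replicate 1 (limma adjusted p = 0.053) and with normexp (−0.22, limma adjusted p = 0.094). In retinoic acid Col20a1 rose by 0.40 ± 0.08 with sh4 (limma adjusted p = 0.0009), its change of −0.16 ± 0.08 with shCTR did not pass, and the interaction was 0.55 ± 0.11 (limma adjusted p = 0.0033). On the second kept Col20a1 probe the hairpin differences of −0.48 in retinoic acid and −0.88 in untreated cells passed and the interaction of 0.41 did not (limma adjusted p 0.006, 1.3e-05 and 0.07).

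Col13a1, a transmembrane collagen of cell adhesion sites and the neuromuscular junction (probe within mm9 chr10:61330216-61330585, minus strand), was lower with sh4 in both treatments. Its levels were −6.18, −6.44 and −5.94 with sh4 and −5.31, −5.29, −4.90 and −5.08 with shCTR in retinoic acid. In untreated cells they were −6.00, −6.49, −5.75 and −5.74 with sh4 and −3.98, −4.11, −3.92 and −4.10 with shCTR. All sh4 samples lay below all shCTR samples of the same treatment. Its differences sh4 minus shCTR were −1.04 ± 0.18 in retinoic acid and −1.97 ± 0.16 in untreated cells, where the untreated sh4 level was 0.255 times that of shCTR (limma adjusted p 0.00079 and 7.1e-07). In retinoic acid Col13a1 changed by −1.12 ± 0.16 with shCTR (limma adjusted p = 3.5e-05), the sh4 change of −0.19 ± 0.18 did not pass, and the interaction was 0.93 ± 0.24 (limma adjusted p = 0.014). With normexp, the call in retinoic acid was lost (limma adjusted p = 0.067). The Col13a1 promoter, chr10:61979109-61979358 of GRCm38.p6 on the minus strand, is shown as it combines 24 CG pairs with 1 TATAAA match, in capitals.
Col13a1: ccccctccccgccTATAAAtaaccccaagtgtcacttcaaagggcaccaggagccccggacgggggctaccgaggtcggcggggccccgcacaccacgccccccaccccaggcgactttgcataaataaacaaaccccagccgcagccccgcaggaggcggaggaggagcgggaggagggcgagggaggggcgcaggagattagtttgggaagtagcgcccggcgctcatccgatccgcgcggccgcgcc

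Among the other transmembrane collagens, Col17a1, of the hemidesmosomes of skin, rose in retinoic acid by 0.81 ± 0.10 with sh4 and 0.98 ± 0.09 with shCTR, and Col23a1 by 0.84 ± 0.26 and 0.84 ± 0.24 (limma adjusted p 5.8e-06, 3.5e-07, 0.012 and 0.0066). Col25a1, of neurons, had no call on its brightest probe, which is the one shown above, while its other kept probe was higher in retinoic acid by 1.47 ± 0.32 with sh4 and 1.48 ± 0.29 with shCTR (limma adjusted p 0.0011 and 0.00051 over 31179 probes). Of the multiplexins, basement membrane collagens that carry cleavable ends, Col18a1, the parent of endostatin, was at 5.77, 5.72 and 5.29 with sh4 and 5.31, 5.25, 5.23 and 5.32 with shCTR in retinoic acid. Untreated cells had 5.40, 4.86, 5.19 and 5.12 with sh4 and 3.85, 4.40, 4.19 and 4.34 with shCTR. The untreated shCTR samples were the lowest of the 4 groups, and the sh4 excess there was 0.95 ± 0.14 (limma adjusted p = 0.00017). Col18a1 rose in retinoic acid by 0.45 ± 0.15 with sh4 and 1.08 ± 0.14 with shCTR (limma adjusted p 0.022 and 1.3e-05), and the sh4 call was lost without sh4 replicate 1 or 3 in retinoic acid or untreated sh4 replicate 2 (limma adjusted p up to 0.097). The interaction of −0.63 ± 0.21 (limma adjusted p = 0.049) was lost on leaving out any 1 of 12 arrays, with slide as a term (limma adjusted p = 0.075) and with normexp (limma adjusted p = 0.099). The second Col18a1 probe differed between hairpins by 0.36 ± 0.06 in retinoic acid and 1.10 ± 0.05 in untreated cells, with an interaction of −0.75 ± 0.08 (limma adjusted p 0.00056, 5e-09 and 1.7e-05 over 31179 probes). Col15a1 had no call.

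There are 9 members with 2 or more kept probes, and no gene had probes called in opposite directions in any of the 4 comparisons of hairpin or treatment. All kept probes of a gene were called with the same sign for only 1 of the 9 for the hairpin in retinoic acid, 2 in untreated cells and 3 for retinoic acid with either hairpin. Only some probes were called for 3 and 2 genes between hairpins, and for 6 with sh4 and 5 with shCTR in retinoic acid. A gene with fewer than 2 called probes could not show opposite directions. The 5 genes with no call in any comparison on the probe used, Col4a4, Col4a6, Col9a1, Col15a1 and Col25a1, are also the 5 with the widest spread within groups, with SDs of 0.477 to 0.611. Part of that spread was shared by slide. With slide as a term, the standard errors of their untreated hairpin differences were 0.13 to 0.29, in place of 0.32 to 0.40. None of the 5 gained a call with that term.

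**Figure D3:**
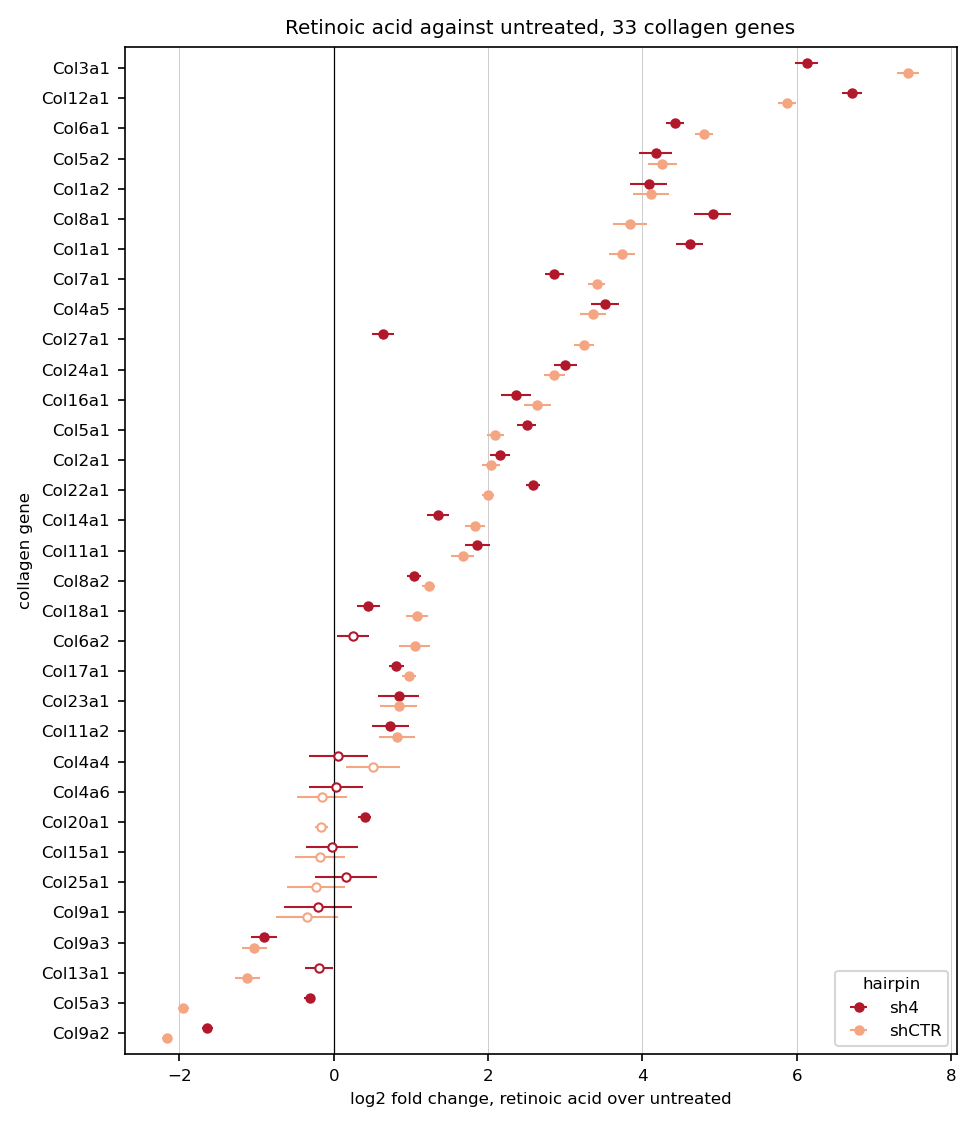
Log2 fold change of each collagen gene in retinoic acid against untreated cells, ordered by the change with shCTR, with sh4 and shCTR shown side by side. Filled points passed limma's test and bars are ± 1 SE, and most fibrillar genes lie right of 0 with both hairpins.

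The hairpin effect was set side by side in the 2 treatments for all 33 genes. The test was passed in both by 8, and 7 of these had the same sign. Col4a5 and Col7a1 were higher with sh4, Col5a3, Col9a2, Col13a1 and Col20a1 were lower, and Col3a1 was higher in retinoic acid, with an untreated difference that lies almost wholly below background. The remaining gene, Col27a1, had opposite signs. How many of all genes passed in both treatments was not counted, so this overlap is not set against the array. In untreated cells only, 6 passed, namely Col1a1, Col5a2, Col6a1, Col16a1, Col18a1 and Col22a1, and 4 in retinoic acid only, namely Col8a1, Col11a1, Col12a1 and Col14a1, of which Col11a1 also passed in untreated cells with slide as a term. The interaction passed for Col1a1, Col18a1 and Col22a1 of the first set and for Col8a1 and Col12a1 of the second, and the others were not shown to differ between treatments. The 4 that were lower with sh4 in both treatments all had a positive interaction that passed, so their hairpin difference was smaller in retinoic acid, where normexp lost all 4 calls. The untreated values of Col3a1, Col8a1 and Col12a1 lie below background on nearly all arrays, so their interactions are fitted values that carry no fold. On leaving out 1 array the Col1a1 interaction was lost without sh4 replicate 1 or 3 in retinoic acid (limma adjusted p up to 0.058), and that of Col8a1 without any 1 of 8 arrays (limma adjusted p up to 0.10). With normexp the interaction calls of Col1a1, Col7a1, Col8a1 and Col18a1 were lost (limma adjusted p 0.051, 0.084, 0.15 and 0.099). The Col13a1 interaction was lost with quantile normalization (limma adjusted p = 0.11).

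**Figure D4:**
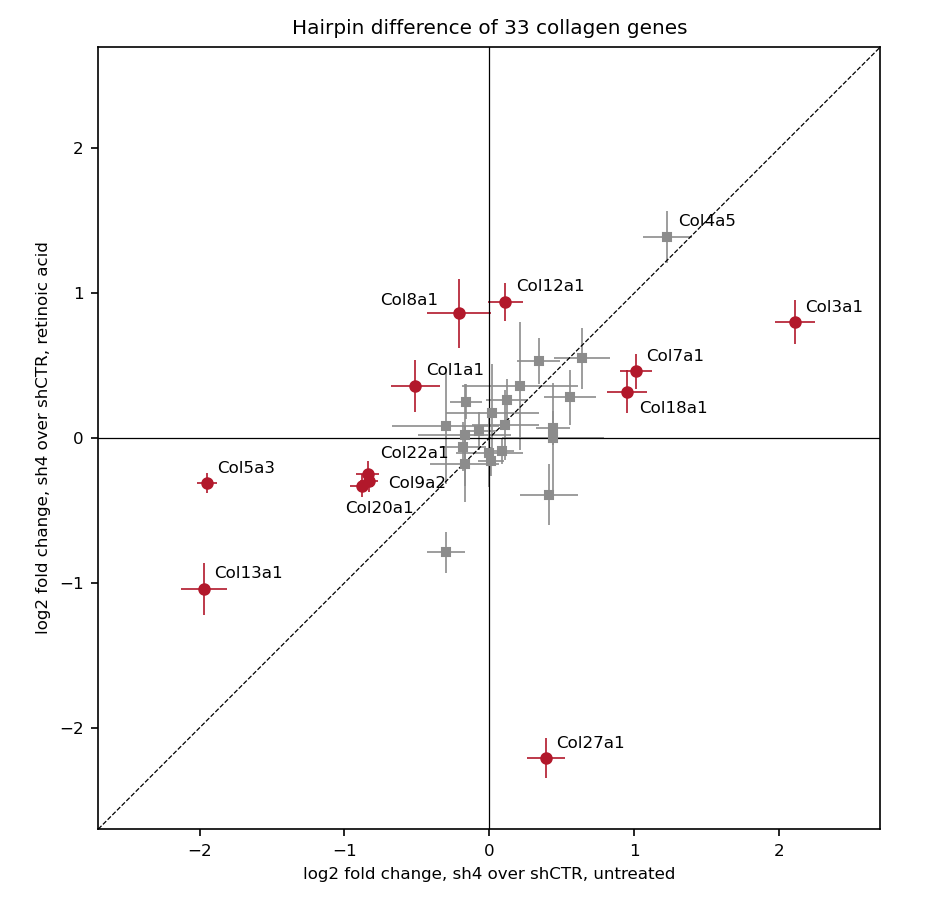
Each point is a collagen gene, with its log2 difference sh4 minus shCTR in retinoic acid on the y axis and in untreated cells on the x axis, and bars of ± 1 SE. Red circles mark genes whose interaction passed the test, grey squares the others, and the dashed line marks equal differences. Col27a1 lies farthest from that line, with −2.21 in retinoic acid and 0.39 in untreated cells.

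Normexp was run with an offset of 50, which by itself makes log ratios of dim probes smaller, and the part of that offset was not tested. Besides the calls lost and the Col3a1, Col8a1 and Col12a1 changes given above, normexp made the values of several genes smaller in size by over 1.5 times while they still passed. For retinoic acid with sh4 it gave 1.70 for Col5a2, 0.62 for Col8a2, −0.39 for Col9a3, 0.63 for Col14a1, 0.38 for Col23a1 and 0.37 for Col27a1. With shCTR it gave 1.71 for Col4a5, 1.26 for Col5a2, 3.14 for Col6a1, 0.32 for Col6a2, 0.61 for Col8a2, −0.52 for Col9a3, 0.94 for Col11a1, −0.67 for Col13a1, 0.85 for Col14a1, 0.30 for Col23a1 and 2.12 for Col27a1. The Col13a1 hairpin difference in untreated cells was −0.88 and its interaction 0.53, and the Col14a1 hairpin difference in retinoic acid was −0.49.

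Promoters of 30 of the 38 genes are in the RefSeq table, and 4 motifs were searched on both strands in the 250 bases before each start. None of the 4 motifs contains another. TATAAA was in 5 of the 30 collagen promoters, 16.7%, beside 12.4% of the 32851 promoters of the table. CCAAT was in 10, 33.3% beside 33.8%, GGGCGG in 18, 60.0% beside 32.7%, and AGGTCA, a hexamer that retinoic acid receptors bind, in 7, 23.3% of the collagen promoters, beside 4607 of the 32851 promoters. The median number of CG pairs was 10 in collagen promoters and 6 in all. A collagen gene with several starts counted as holding a motif if any start did, and its highest CG number was used. The table's shares and median count each promoter singly, so the measures are unlike and tilt towards the collagen genes. A match is a description of these letters in this window only.

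Genes that make, move, link, bind and cut collagen were listed apart from the chains. Over all genes, 27.1% were higher and 31.6% lower in retinoic acid with sh4, and 29% and 33.5% with shCTR. Between hairpins, 10.9% were higher and 10.3% lower with sh4 in retinoic acid, and 14.4% and 14.1% in untreated cells. The lists are small, and none was tested against these shares. Of the genes that modify and fold collagen, 16 were tested, and in retinoic acid 10 rose and 1 fell with sh4, and 13 rose and 0 fell with shCTR, with list medians of 0.56 and 0.92. Serpinh1, the collagen chaperone of the endoplasmic reticulum, rose by 3.68 ± 0.07 with sh4 and 4.29 ± 0.07 with shCTR (limma adjusted p 2.5e-13 and 1.7e-14). In retinoic acid 10 of these 16 genes were lower and 1 higher with sh4 than with shCTR, with a list median of −0.61 beside 0.04 over all genes. The differences were −1.60 ± 0.18 for P3h2, a prolyl hydroxylase, −1.22 ± 0.10 for Plod2, a lysyl hydroxylase, and −1.19 ± 0.15 for Colgalt1, which adds galactose to collagen (limma adjusted p 2.7e-05, 1.5e-06 and 7.3e-05). The collagen chains themselves had 6 higher and 6 lower there, so the 2 sets of genes gave different counts, and that difference was not tested.

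Of the genes for procollagen secretion and processing, 11 were tested, with 5 higher and 4 lower in retinoic acid with either hairpin and medians of −0.20 with sh4 and 0.22 with shCTR. Bmp1, which removes the C-terminal propeptide, rose by 1.40 ± 0.13 with sh4 and 3.08 ± 0.12 with shCTR, and its enhancer Pcolce changed by −0.81 ± 0.10 and −2.04 ± 0.10 (limma adjusted p 4.3e-07, 4.5e-11, 1.1e-05 and 3.1e-10). All 4 crosslinking genes tested rose with both hairpins, Loxl4 by 2.27 ± 0.19 with sh4 and 4.05 ± 0.17 with shCTR (limma adjusted p 1.4e-07 and 1.2e-10), with list medians of 1.93 and 1.46, and Lox did not pass the filter. Of 8 collagen receptors, 3 rose and 2 fell in retinoic acid with sh4, and 4 rose and 2 fell with shCTR, with medians of 0.43 and 0.93. The secretion and receptor counts, of few genes and in both directions, are not read as differing from the shares over all genes. Itga11, an integrin that binds fibrillar collagen, rose by 4.03 ± 0.11 with sh4 and 4.05 ± 0.10 with shCTR, while Ddr2, a kinase receptor for collagen fibres, fell with both hairpins, with −1.61 ± 0.08 in shCTR cells (limma adjusted p 2.5e-12, 6.5e-13 and 4.7e-10). All 4 collagen-degrading proteases tested rose with both hairpins, Mmp9 by 1.54 ± 0.11 with sh4 and 3.00 ± 0.11 with shCTR (limma adjusted p 5.4e-08 and 2e-11), with list medians of 1.33 and 0.84, and Mmp1a, Mmp8 and Mmp13 did not pass the filter. In untreated cells sh4 against shCTR gave 2 higher and 6 lower of the modifying and folding genes, 1 and 3 of the secretion genes, 1 and 2 of the crosslinking genes, 4 and 1 of the receptors and 0 and 1 of the proteases.

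Markers of cell types that make collagen did not all move the same way in retinoic acid. Over all genes, 27.1% were higher and 31.6% lower there with sh4, and 29% and 33.5% with shCTR. Of 9 fibroblast markers tested, 7 were higher and 2 lower with sh4 and 6 higher and 2 lower with shCTR, and the summed signal of the list, as a multiple of the 75th percentile, was 23.7 to 24.8 with sh4 and 20.2 to 22.8 with shCTR in retinoic acid. In untreated cells that sum was 39.7 to 45.1 with sh4 and 36.9 to 40.9 with shCTR, and Prrx1 was never well above background in any group. Of that list, Postn and Fap were not well above background on any untreated array, nor were Dcn and Lum in untreated shCTR cells. Postn, which was tested, thus passed the filter only through the retinoic acid arrays and had to be higher there. Of 7 endoderm markers, 6 rose with sh4 and 7 with shCTR, with sums of 138 to 148 with sh4 and 299 to 317 with shCTR in retinoic acid, and 50.7 to 58.1 with sh4 and 60.7 to 69.0 with shCTR in untreated cells. All 7 endoderm markers were lower with sh4 in retinoic acid, where 6 collagen genes were lower and 6 higher. Of 5 chondrocyte markers, 3 rose and 1 fell with sh4 and 4 rose and 1 fell with shCTR, with sums of 0.662 to 0.683 with sh4 and 0.673 to 0.789 with shCTR in retinoic acid. Their sums in untreated cells were 0.308 to 0.420 with sh4 and 0.309 to 0.412 with shCTR, where Sox9 and Hapln1 were never above background. Sox9 and Hapln1 thus passed the filter only through the retinoic acid arrays and had to be higher there. Of 4 endothelial markers, 1 rose and 2 fell with either hairpin, and Emcn was never above background. The sums of the endothelial list were 0.657 to 1.48 with sh4 and 0.866 to 1.36 with shCTR in retinoic acid, and 0.954 to 1.78 with sh4 and 1.07 to 1.31 with shCTR in untreated cells. Between hairpins, sh4 against shCTR gave 0 higher and 1 lower of the fibroblast markers in retinoic acid and 4 and 3 in untreated cells, and of the endoderm markers 0 and 7 in retinoic acid and 1 and 5 in untreated cells. Over all genes, 10.9% were higher and 10.3% lower with sh4 in retinoic acid, and 14.4% and 14.1% in untreated cells. The marker lists were not tested against these shares. The part of these cell types in the collagen results was not tested.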

How the data were processed

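Total RNA, 500 ng a sample, was labelled with Cy3, per the labels' protocols. The deposited scanner files hold intensities per spot, from which Feature Extraction had subtracted background and replaced signals near it by a surrogate, per the file headers. Spots of a probe were averaged, the processed signal was taken to log2, and the 75th percentile of the array's probes, controls left out, was subtracted. A table of log2 values deposited by the authors equals normexp, with the offset of 50, and quantile normalization of the mean signal and served only as an alternative. Probes had to be marked as well above background by the software in 3 or more arrays of some group, and the brightest probe stood for its gene. Comparisons used limma 3.58.1 in R 4.3.3, with 1 model of 4 groups over 15 arrays, tested on simulated data. The number of arrays, 3 or 4 a group, limits the precision. Where a group had no array well above background, a fold is a lower bound against each array's lowest signal among probes well above background. Samples on the same slide deviated together (correlation 0.115 to 0.607), those with the same replicate number did not all do so (−0.532 to 0.578). The members, lists and thresholds were chosen with earlier results of these data known. Values per array are given for members past 1 (hairpin, interaction) or 2 (retinoic acid) on the log2 scale. Fits of each kept probe on its own were added after seeing the data. Promoters come from RefSeq (GRCm38.p6), and exons of the probes were not analysed here.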

Additional observations from a re-analysis of the deposited data

Results flagged for a closer look

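The hairpin difference itself differed between retinoic acid and untreated cells for 12 collagen genes, by limma's test of the interaction (hairpin effect in retinoic acid minus that in untreated cells, Benjamini-Hochberg adjusted over 25087 genes). The value was positive for Col1a1 (0.87), Col5a3 (1.64), Col8a1 (1.07), Col9a2 (0.52), Col12a1 (0.84), Col13a1 (0.93), Col20a1 (0.55) and Col22a1 (0.59). It was negative for Col3a1 (−1.31), Col7a1 (−0.55), Col18a1 (−0.63) and Col27a1 (−2.60). Those of Col3a1, Col8a1 and Col12a1 rest on untreated values that were not well above background. In the 99 groups of 4 arrays of the 33 genes, no array stood apart from its group by Dixon's test, where chance alone gives about 1 in 20.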

How the results depend on the processing

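The numbers of collagen genes called moved by more than 1.5 times under normexp background correction, which called 9 for the hairpin in untreated cells (3 higher, 6 lower, where the values reported have 14) and 6 in retinoic acid (4 higher, 2 lower, where they have 12). The authors' deposited values gave 9 in untreated cells. Leaving out each array in turn, the called genes numbered 9 to 13 for the hairpin in retinoic acid, 11 to 14 in untreated cells, 25 to 26 for retinoic acid with sh4, 27 each time with shCTR and 8 to 12 for the interaction. With normexp the sign turned for Col3a1 in the hairpin comparison in untreated cells (−0.07) and in the interaction (0.78), for Col5a2 in the hairpin comparison in untreated cells (−0.07) and, in retinoic acid with shCTR, for Col11a2 (−0.06) and Col24a1 (−0.07). With the deposited values it turned for the Col3a1 interaction (0.59). The cause was not tested. Replicate numbers did not pair the samples, and with the replicate block the counts were 13 for the hairpin in retinoic acid, 14 in untreated cells, 25 for retinoic acid with sh4, 27 with shCTR and 11 for the interaction. With the slide as a term they were 12, 15, 26, 27 and 11 in the same order. Genes read close to background, Col3a1, Col5a2, Col8a1, Col12a1 and Col24a1, are limited by signal over background in untreated cells.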
